A study of Mus musculus with 7 samples.

Results

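The transcript clusters described here are those to which the array's annotation gives 2 or more different gene symbols. A transcript cluster is the set of short probes that an Affymetrix Mouse Gene 1.0 ST array summarises into 1 value. Of the 24922 clusters in the table, 1393 carried several symbols, 21431 carried 1 and 2098 carried none. The clusters were chosen by their annotation and not by their values, though earlier results of these data were known. Among the 1393, 670 had 2 symbols, 477 had 3 to 5 and 246 had more than 5, with a largest number of 20. They named 1999 different symbols in 770 different symbol sets, and 254 of these sets stood on more than 1 cluster (877 clusters). Clusters of 1 set can hold the same or near-identical probes and are not independent measurements. In 671 clusters (48.2%) at least 1 of the symbols was a predicted gene or a clone name.

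The arrays measured RNA of cells enriched for natural killer (NK) cells from spleens of male C57BL/6 mice aged 6 weeks, and the series title asks how such cells respond to interleukin 2 (IL2) in culture. Other cell types had been depleted with an EasySep negative selection kit, and the cells were kept for 8 h either with IL2 at 250 U/ml (4 arrays, replicates 1 to 4) or untreated (3 arrays, replicates 2 to 4). For 3 arrays (untreated replicate 2, IL2 replicate 1 and IL2 replicate 2) the title leaves out the time, which comes from other labels. No label says that the replicates were separate mice or cultures, so the p-values reflect no more than the spread among these samples, which may be technical.

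Gene families that grew by tandem duplication carry long stretches of near-identical sequence, and a probe within such a stretch binds the transcripts of every copy. Many immune families of the mouse are of this kind. Interferon-inducible GTPases, which attack the vacuoles of intracellular pathogens, lie in clusters of close paralogs, as do the Ly49 receptors (Klra genes) with which mouse NK cells recognise MHC class I. Paired immunoglobulin-like receptors of myeloid cells are another such group. Processed pseudogenes, which are reverse-transcribed copies of highly expressed genes such as those of ribosomal proteins, give shared clusters across chromosomes. For every cluster below, which of its genes gave the signal cannot be told from the cluster's value.

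The promoters of GTPase genes on 4 of the 5 clusters with the largest rises are shown here because paralogs with shared probes need not have the same regulatory sequence. Promoters of the 6 guanylate-binding protein genes of the remaining cluster (10531994) were not used here. They come from the RefSeq promoter table (GRCm38.p6) and cover 250 bases before the start that the table uses. Capitals mark matches on either strand to 2 motifs, the gamma-activated site (GAS, TTCNNNGAA) and the core of the interferon-stimulated response element (ISRE, GAAANNGAAA). The windows of the immunity-related GTPases were chr11:48992247-48992496 (- strand), chr11:49064213-49064462 (- strand), chr11:58199306-58199555 (+ strand) and chr11:58214727-58214976 (+ strand). Those of the guanylate-binding proteins were chr3:142620413-142620662 (+ strand) and chr3:142594597-142594846 (+ strand).
Tgtp1: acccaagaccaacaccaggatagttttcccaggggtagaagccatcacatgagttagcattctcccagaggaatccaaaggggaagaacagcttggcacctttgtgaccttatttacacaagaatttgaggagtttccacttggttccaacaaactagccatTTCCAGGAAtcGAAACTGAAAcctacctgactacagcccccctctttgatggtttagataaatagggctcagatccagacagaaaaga
Tgtp2: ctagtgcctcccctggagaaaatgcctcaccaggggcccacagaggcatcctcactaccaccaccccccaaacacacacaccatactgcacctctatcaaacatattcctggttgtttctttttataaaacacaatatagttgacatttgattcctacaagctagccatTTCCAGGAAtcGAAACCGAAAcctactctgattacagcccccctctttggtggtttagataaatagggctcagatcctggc
Igtp: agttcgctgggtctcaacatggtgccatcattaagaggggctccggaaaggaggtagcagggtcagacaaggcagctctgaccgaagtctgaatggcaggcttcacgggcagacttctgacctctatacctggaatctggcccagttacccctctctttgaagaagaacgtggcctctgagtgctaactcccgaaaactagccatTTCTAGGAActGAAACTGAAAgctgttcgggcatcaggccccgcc
Irgm2: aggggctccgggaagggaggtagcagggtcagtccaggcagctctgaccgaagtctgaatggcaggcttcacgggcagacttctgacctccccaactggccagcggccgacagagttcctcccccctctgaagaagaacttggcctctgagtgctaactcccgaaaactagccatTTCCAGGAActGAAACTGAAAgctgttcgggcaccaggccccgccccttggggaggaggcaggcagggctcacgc
Gbp2: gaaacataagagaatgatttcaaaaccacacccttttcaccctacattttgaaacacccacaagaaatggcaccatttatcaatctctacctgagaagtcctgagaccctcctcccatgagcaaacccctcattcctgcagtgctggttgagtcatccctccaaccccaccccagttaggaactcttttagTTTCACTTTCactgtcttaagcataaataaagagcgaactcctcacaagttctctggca
Gbp2b: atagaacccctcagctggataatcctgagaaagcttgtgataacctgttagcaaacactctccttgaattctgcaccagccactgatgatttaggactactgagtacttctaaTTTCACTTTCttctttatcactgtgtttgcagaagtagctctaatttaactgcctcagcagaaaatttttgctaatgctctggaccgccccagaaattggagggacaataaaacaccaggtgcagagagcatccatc

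Each of the 4 immunity-related GTPase promoters held 1 GAS match and 1 ISRE core match, with no overlap between them. The GAS match began 88 bases before the start in Tgtp1, 81 in Tgtp2, 45 in Igtp and 75 in Irgm2, and the ISRE match 77, 70, 34 and 64 bases before it. The Gbp2 and Gbp2b windows held an ISRE match only, 59 and 137 bases before the start that the table uses. For Gbp2b this start lies 31 bases inside the gene as RefSeq's gene table places it, and for the other 5 genes the starts coincide. Of 32851 promoter windows of the same length, 7.02% held a GAS match, 2.98% an ISRE core match and 0.332% both. In pairwise alignment the windows of Tgtp1 and Tgtp2 were 62.7% identical, those of Igtp and Irgm2 68.1% and those of Gbp2 and Gbp2b 48.0%. The same alignment gave 45.5% for Notch4 and Sympk, 45.5% for B130055M24Rik and Ppan and 37% for Gm12657 and H3f3a. The genes of each of these pairs lie on different chromosomes. The windows of Ifi47 and Olfr56, which share another of the clusters, held neither motif and were 46.0% identical. The motifs were searched after the rises were known, and a match is a description of these letters, not a measured binding site.

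With IL2, 22 of the 1393 shared clusters were higher (1.58%, beside 1.83% of all 24922 clusters) and 12 were lower (0.861%, beside 0.77% of all). Both shares were near those of the whole table. Calls were made with limma at a Benjamini-Hochberg adjusted p under 0.05 over all clusters. At an unadjusted p under 0.05 there were 145 of the 1393 shared clusters. Without any difference a share of about 0.05 would pass this level by chance. The share over all clusters was not counted, here or for the later counts at this level. The 34 called clusters came from 21 different symbol sets, 15 higher and 6 lower. Of them 9 were at least 2-fold higher and 6 at least 2-fold lower. All IL2 arrays were above, or all below, every untreated array in 112 shared clusters (8.04%, beside 9.14% of all clusters), among them all 34 called. The median log2 difference, IL2 minus untreated, was -0.07 over the shared clusters and -0.02 over all clusters, and 1045 shared clusters (75%) lay within 0.25 of 0. The higher count fell to 12 without IL2 replicate 2, 3 or 4 or untreated replicate 3 or 4. The lower count fell to 2 when IL2 replicate 2 was removed, to 3 for IL2 replicate 3 and to 5 for IL2 replicate 4, untreated replicate 3 or untreated replicate 4. When 1 array at a time was removed, 12 of the 34 calls held throughout all 7 fits.

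Arrays whose titles give the time (untreated replicates 3 and 4, IL2 replicates 3 and 4) and those whose titles do not were also fitted apart. Over the former 6 shared clusters were higher and 1 was lower, and over the latter, with 1 untreated array, limma called 0 (153 had an unadjusted p under 0.05). All 34 called clusters kept their sign in both. The shared globin clusters differed between these array sets within each group. Cluster 10375051 of Hba-a1 and Hba-a2, the alpha globin genes, was at a log2 intensity of 9.51 in untreated replicate 2 and at 11.82 and 11.44 in untreated replicates 3 and 4. With IL2 it was at 9.34 and 9.33 in replicates 1 and 2 and at 11.03 and 11.07 in replicates 3 and 4. Between the treatments it differed by -0.73 (SE 0.68, limma adjusted p = 0.767). The globin clusters were named after their values were seen, and their part in other results was not tested.

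**Figure D1:**
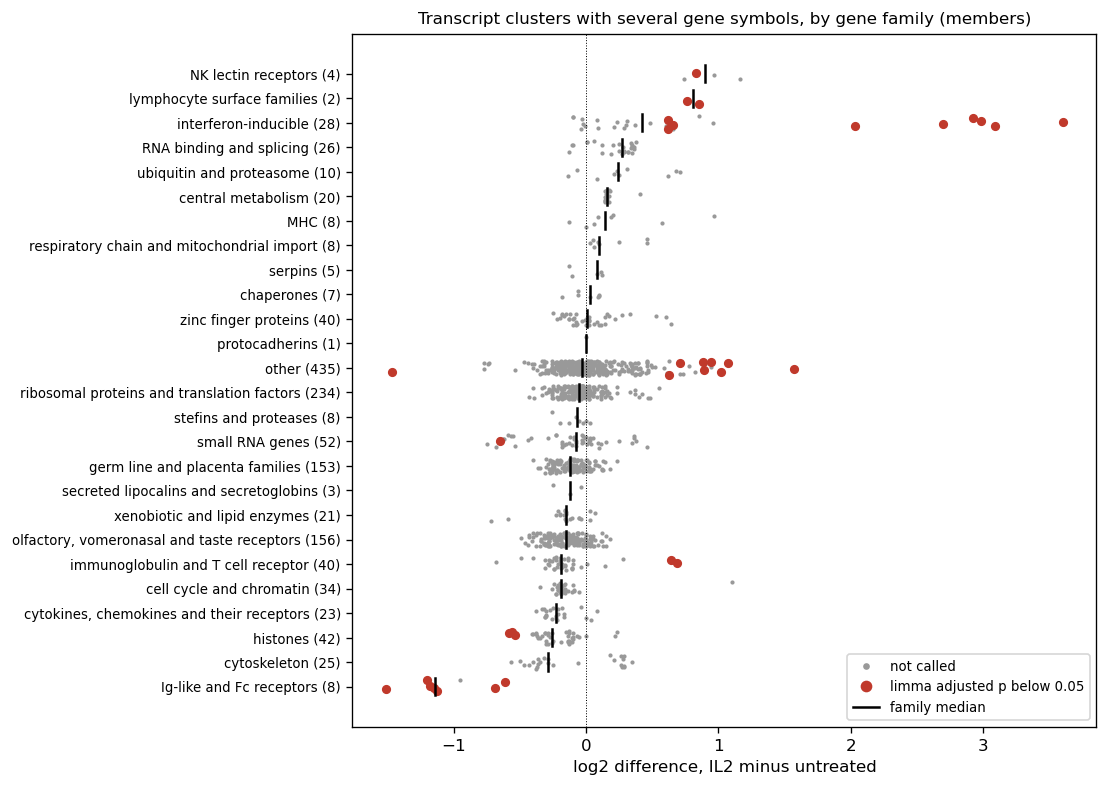
Log2 difference between IL2 and untreated arrays (x axis) of each of the 1393 shared clusters, in rows by gene family with the number of clusters in brackets; points are spread vertically at random within a row, red points passed limma at an adjusted p under 0.05 and black ticks are family medians. The interferon-inducible family reaches 3.60, while most other families are centred near 0. The Ig-like and Fc receptor family, here Sirpb1, Cd300ld and paired Ig-like receptor genes, lies between -1.51 and -0.61.

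The families in which shared clusters changed were few. Of 28 interferon-inducible clusters 9 rose and 0 fell (median 0.42), beside a median of -0.02 over all clusters. Of 8 clusters in the Ig-like and Fc receptor family 7 fell and 0 rose (median -1.14). All 8 were of Sirpb1, Cd300ld or paired Ig-like receptor genes, without an Fc receptor symbol. The families were assigned by the symbols, and were drawn up with earlier results of these data known. Of the 42 histone clusters 3 fell, of 40 immunoglobulin and T cell receptor clusters 2 rose, of 52 clusters with a small RNA gene 1 fell and of 4 NK lectin receptor clusters 1 rose. Both clusters of the lymphocyte surface families rose. A further 8 rises and 1 fall were in 435 clusters of no named family. The other 18 families, with 782 clusters, had 0 called in limma, with 42 at an unadjusted p under 0.05. By where RefSeq places the genes, 13 rises and 7 falls were among 509 clusters whose genes lie within 1 Mb on 1 chromosome. These were 3.93% of the 509 and came from 13 symbol sets. Another 9 rises and 4 falls were among 491 clusters whose genes lie on different chromosomes (2.65%, from 7 sets). Of these 9 rises, 5 were of Notch4/Sympk and 3 of sets with Sp110. Over all 24922 clusters 1.83% were higher and 0.77% lower. Differences between these shares were not tested. The 253 clusters whose genes lie further apart on 1 chromosome had 0 limma calls (6 at an unadjusted p under 0.05), and 121 whose genes overlap had 1 fall.

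Interferon-inducible GTPase genes gave the largest rises among the shared clusters. Cluster 10496592 of Gbp2 and Gbp2b, guanylate-binding proteins whose genes are neighbours on chromosome 3, had log2 intensities of 9.30, 8.05 and 8.76 in the untreated arrays and 12.31, 12.47, 12.10 and 12.33 with IL2. The lowest IL2 array lay well above the highest untreated array, and the untreated arrays varied more among themselves than the IL2 arrays did. The rise was 12.1-fold (log2 difference 3.60, SE 0.27, limma adjusted p = 0.00115). The cluster's annotation lists a RefSeq transcript of Gbp2 but not of Gbp2b.

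A cluster of 6 guanylate-binding protein genes of chromosome 5, Gbp10, Gbp11, Gbp4, Gbp6 and 2 more (10531994), was at 8.42, 7.71 and 7.91 untreated and at 11.04, 10.96, 10.94 and 10.79 with IL2. Here too the groups did not overlap, with a log2 difference of 2.92 (SE 0.17, limma adjusted p = 0.000344). The T cell-specific GTPase genes Tgtp1 and Tgtp2, on chromosome 11, shared 2 clusters. Cluster 10385518 was at 9.77, 8.56 and 8.83 untreated and at 12.13, 12.18, 12.22 and 12.07 with IL2, a rise of 8.54-fold (3.09, SE 0.26, limma adjusted p = 0.00155). Cluster 10385533 gave a like value, with a log2 difference of 2.98 (SE 0.28). In both, untreated replicate 2 was the highest of the untreated arrays.

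Cluster 10376326 of Igtp and Irgm2, immunity-related GTPases that act on pathogen vacuoles and on the cell's own membranes, was at 8.26, 7.48 and 8.01 untreated and at 10.49, 10.84, 10.66 and 10.50 with IL2. It rose 6.51-fold (2.70, SE 0.19, limma adjusted p = 0.00083). Cluster 10375515 joined Ifi47, another immunity-related GTPase, with the olfactory receptor gene Olfr56. It was at 7.95, 7.23 and 6.82 untreated and at 9.31, 9.48, 9.29 and 9.38 with IL2, a rise of 4.08-fold (2.03, SE 0.24, limma adjusted p = 0.00586). Of the 96 shared clusters with an olfactory receptor symbol it was the only one called in limma. The calls of these 6 clusters held without each of the 7 arrays in turn. Over the arrays with the time in the title 5 of them held, and Igtp/Irgm2 missed the threshold (2.83, adjusted p = 0.0503). Over the 3 arrays without it, all 6 lost their calls (adjusted p = 0.376 for each), with differences of 1.44 to 3.09. For Gbp2/Gbp2b the log2 differences in the 2 array sets were 3.81 and 3.09, and for Ifi47/Olfr56 2.31 and 1.44.

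The very large inducible GTPase Gvin1 shared cluster 10566574 with Gm4070. It was at 10.51, 9.54 and 9.45 untreated and at 11.20, 11.39, 11.58 and 11.45 with IL2, so the groups did not overlap. The log2 difference was 1.57 (SE 0.25, limma adjusted p = 0.0195), and 2.02 and 0.79 over arrays with and without the time in the title. The call ended without IL2 replicate 2, 3 or 4 or untreated replicate 3 or 4, at adjusted p-values of up to 0.0948 and log2 differences of 1.38 to 1.91 over the 7 arrays left out in turn. A pair of further clusters of Gvin1 with 4 Gm symbols (10566571 and 10566578), named after their values were seen, differed by 0.78 and 0.90 and missed the threshold (adjusted p = 0.209 and 0.162).

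**Figure D2:**
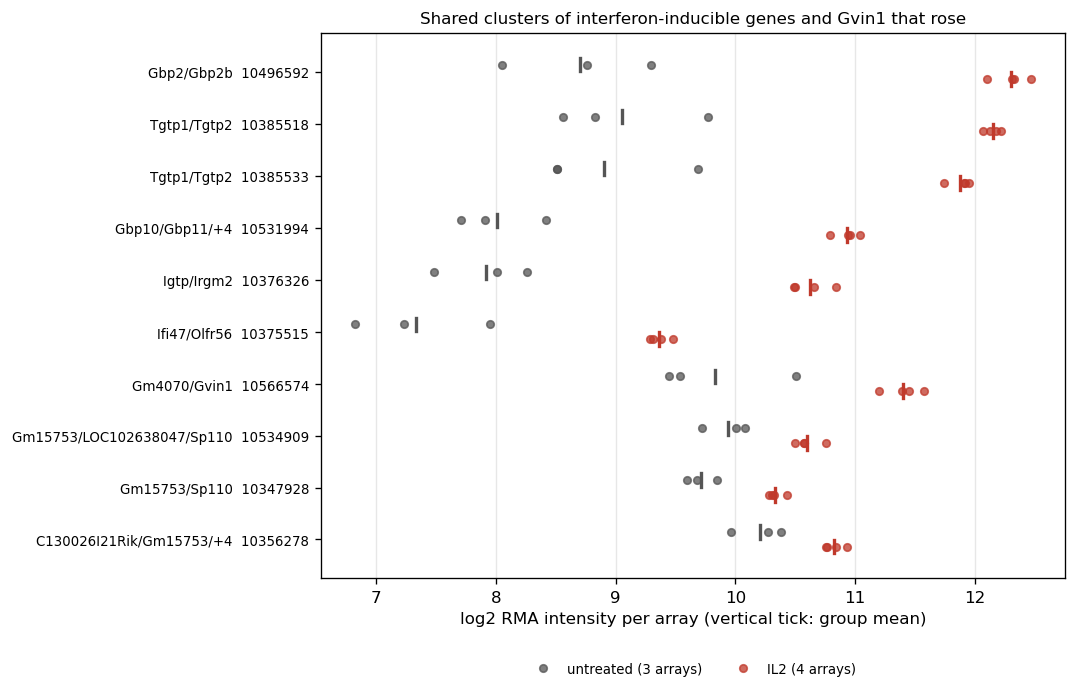
Log2 RMA intensity of each array (x axis) for the 9 interferon-inducible shared clusters that rose and the Gm4070/Gvin1 cluster; grey points are the 3 untreated and red points the 4 IL2 arrays, with ticks at the group means. In every row all IL2 arrays lie to the right of all untreated arrays, and the gap is widest for Gbp2/Gbp2b.

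Sp110, a nuclear body protein whose gene lies beside many partial copies, was on the 3 other interferon-inducible clusters that rose. Cluster 10347928 of Gm15753 and Sp110 was at 9.85, 9.60 and 9.68 untreated and at 10.32, 10.28, 10.43 and 10.31 with IL2, a difference of 0.62 (SE 0.09, limma adjusted p = 0.0121). Clusters 10534909 and 10356278, which add other predicted symbols, differed by 0.66 and 0.62 (adjusted p = 0.0255 and 0.0354). The 3 clusters share symbols and were named after their values were seen. Without 1 array their calls ended at adjusted p-values of up to 0.0557, 0.0955 and 0.13. For 10347928 this took leaving out IL2 replicate 2 or untreated replicate 4, for 10534909 any array other than IL2 replicate 1, and for 10356278 any of the 7. All 8 shared clusters with Sp100, Sp110 or Sp140 had a positive difference (0.29 to 0.66, median 0.54).

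The other 19 interferon-inducible shared clusters did not pass the test. The largest differences among them were 0.96 (SE 0.29, limma adjusted p = 0.186) for Gm38525/Trim30b and 0.85 (SE 0.20, adjusted p = 0.0906) for Ifi204/Ifi211, DNA sensors of the nucleus and cytosol. Oas1a/Oas1g, which encode 2'-5' oligoadenylate synthetases, differed by 0.66 (SE 0.16, adjusted p = 0.105). Apol9a/Apol9b, Trim12a/Trim12c/Trim5 and the 4 Csprs clusters lay between -0.10 and 0.08. The cluster of Isg15 with Gm9706 (10451287) differed by 0.31 (adjusted p = 0.299). These were named after their values were seen. Among clusters with 1 symbol, 38 of 88 interferon-inducible ones rose and 2 fell (median 0.92), and the difference between that share and the 9 of 28 was not tested.

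Inhibitory and activating receptors of the NK gene complex shared 4 clusters, of which 1 rose. Ly49 receptors are lectin-like, and most members bind MHC class I. Cluster 10548525 of Klra10, Klra14-ps, Klra3, Klra8 and 1 more was at 9.82, 9.27 and 9.22 untreated and at 10.39, 10.30, 10.15 and 10.24 with IL2. The groups did not overlap, and the difference was 0.83 (SE 0.15, limma adjusted p = 0.0351). The call ended without any array other than untreated replicate 2, at adjusted p-values of up to 0.139, with log2 differences of 0.72 to 1.02. The other 3, named after their values were seen, differed by 0.74, 0.97 and 1.16 (adjusted p = 0.215, 0.0899 and 0.0917) and had untreated replicate 2 as the highest untreated array, as did the called cluster. Some NK cell markers rose over the same arrays, with 6 of 10 called higher in limma and 0 lower (median 1.56). The 4 that did not pass the test were Gzma at 1.81, Klrk1 at 1.05, Eomes at 0.83 and Klrd1 at 0.09. The summed log2 level of the 10 markers was 12.58 to 13.25 untreated and 14.38 to 14.67 with IL2. The part of these markers in the rises was not tested. In such bulk samples more or fewer cells of a type cannot be told apart from more or less RNA per cell.

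Ly6c1 and Ly6c2, neighbours on chromosome 15 that encode GPI-anchored surface proteins of lymphocytes, endothelium and monocytes, shared 2 clusters, and both rose. Cluster 10429568 was at 11.10, 11.39 and 11.21 untreated and at 12.13, 11.95, 12.13 and 12.14 with IL2. Every IL2 array lay above every untreated array, with a difference of 0.85 (SE 0.10, limma adjusted p = 0.0051) that held without each array. Cluster 10429573 differed by 0.76 (SE 0.10, adjusted p = 0.0109, and 0.0537 without untreated replicate 4). The pair was named after its values were seen. Ly6c2 is on the list of macrophage and monocyte markers but had no cluster of its own. It is not among the 10 measured members, of which 6 fell.

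Variable segments of the T cell receptor gamma chain, Trgv2, Trgv4 and Trgv6, shared 2 clusters. Cluster 10407940 was at 9.66, 9.51 and 9.49 untreated and at 10.31, 10.09, 10.33 and 10.24 with IL2, which do not overlap. The difference was 0.69 (SE 0.09, limma adjusted p = 0.00949). In cluster 10403821 it was 0.64 (SE 0.10, adjusted p = 0.0181). This call ended without IL2 replicate 3 or 4 or any untreated array, at adjusted p-values of up to 0.0791 and differences of 0.61 to 0.71. On neither cluster did a RefSeq transcript stand behind any of the symbols. Of the 7 T cell markers 0 were called in limma and 0 had an unadjusted p under 0.05 (median -0.10), with Cd3e at 0.01, and their summed log2 level was 10.49 to 11.10 untreated and 10.32 to 11.17 with IL2. All 26 shared clusters with a T cell receptor symbol had a median of -0.15, and these were the only ones called.

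A symbol set that joins unrelated genes, Notch4 and Sympk, stood on 5 clusters, and all 5 rose. Notch4 encodes a Notch receptor of endothelium and lies on chromosome 17, and Sympk encodes symplekin, a scaffold of the mRNA 3' end machinery, and lies on chromosome 7. Cluster 10538890 was at 5.48, 5.42 and 5.66 untreated and at 6.40, 6.46, 6.37 and 6.35 with IL2. Cluster 10538892 was at 6.25, 6.16 and 6.00 untreated and at 6.89, 7.19, 7.22 and 7.31 with IL2. In neither did the groups overlap, and the differences were 0.88 (SE 0.08, limma adjusted p = 0.00241) and 1.02 (SE 0.12, adjusted p = 0.00589), which held without each array. Clusters 10504761, 10504753 and 10401937 differed by 1.07, 0.94 and 0.71, the last named after its value was seen. Their calls ended without IL2 replicate 2, 3 or 4 or untreated replicate 2 or 3, and that of 10401937 also without untreated replicate 4, at adjusted p-values of up to 0.152.

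The annotation of these clusters lists 2 accessions in common on all 5 and a RefSeq transcript of Notch4 or Sympk on 0 of them. The clusters that carry only Notch4 (10444352) and only Sympk (10550531) each list a RefSeq transcript. Notch4 alone was at 6.93, 7.14 and 7.06 untreated and at 7.06, 7.03, 7.06 and 7.09 with IL2, a difference of 0.02 (SE 0.08, limma adjusted p = 0.962). Sympk alone differed by 0.22 (SE 0.21, adjusted p = 0.774). No change of either gene was called on its own cluster. Over all shared clusters, 1066 had a RefSeq transcript behind 2 or more symbols (22 called, 2.06%), 259 behind 1 (5 called, 1.93%) and 68 behind 0 (7 called, 10.3%). Those 7 were the 5 Notch4/Sympk and the 2 Trgv clusters. The 5 called with 1 such symbol were Gbp2/Gbp2b (Gbp2), Gm15753/Sp110 and Gm15753/LOC102638047/Sp110 (Sp110), B130055M24Rik/Ppan (Ppan) and Apoc2/Gm44805 (Apoc2).

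Other rises stood on single sets. B130055M24Rik/Ppan (10583496), in which Ppan encodes a nucleolar factor of large ribosomal subunit assembly, was at 8.18, 8.23 and 8.65 untreated and at 9.06, 9.45 and 9.44 in IL2 replicates 2 to 4, with IL2 replicate 1 just below these. The groups did not overlap, and the difference was 0.89 (SE 0.17, limma adjusted p = 0.0384), with the call lost without any array other than IL2 replicate 1 (adjusted p up to 0.152). Khdc1a/Khdc1b/Khdc1c (10345079), genes with an RNA-binding KH domain, differed by 0.63 (adjusted p = 0.0321) and was lost in the same way (up to 0.122). It was named after its value was seen.

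Ig-like receptors of the Sirpb1, Cd300ld and PIR (paired immunoglobulin-like receptor) sets held 7 of the 12 clusters that fell and 3 of the 6 symbol sets. Sirpb1a, Sirpb1b and Sirpb1c, activating signal-regulatory proteins of myeloid cells, shared 4 clusters on chromosome 3, of which 3 fell. Cluster 10497358 was at 8.23, 8.67 and 8.36 untreated and at 7.24, 7.01, 6.49 and 6.89 with IL2. All IL2 arrays lay below all untreated arrays, with a difference of -1.51 (SE 0.19, limma adjusted p = 0.00713). Clusters 10497364 and 10497349 differed by -1.15 and -1.13 (adjusted p = 0.0208 and 0.017), and cluster 10497356, named after its value was seen, by -0.95 (SE 0.25, adjusted p = 0.13).

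Cd300ld3, Cd300ld4 and Cd300ld5, receptors of the CD300 family on chromosome 11, which is found on myeloid cells, shared 2 clusters. Cluster 10392834 was at 8.62, 8.92 and 9.19 untreated and at 8.06, 7.62, 7.51 and 7.65 with IL2. The groups did not overlap, and the log2 intensity fell by 1.20 (SE 0.17, limma adjusted p = 0.0147), and 10392825 fell by 1.18 (adjusted p = 0.0217). Over arrays with and without the time in the title, 10392834 differed by -1.47 and -0.77.

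The PIR set of Gm10693, Gm15448, Lilra6, Pira1 and 2 more, receptors for MHC class I on B cells and myeloid cells, lay on chromosome 7. Cluster 10559467 was at 9.43, 9.13 and 9.50 untreated and within 8.63 to 8.69 in the 4 IL2 arrays. The IL2 arrays lay below and were closer to each other than the untreated ones. It fell by 0.69 (SE 0.10, limma adjusted p = 0.0148), and 10559454, named after its value was seen, fell by 0.61 (adjusted p = 0.0245). Of the 7 falls of these receptors, that of 10497358 held without each array. Leaving out IL2 replicate 2, IL2 replicate 3 or untreated replicate 4 left 1 of the 7, leaving out IL2 replicate 4 left 2, untreated replicate 3 left 3 and untreated replicate 2 left 4. Over arrays with and without the time in the title limma called 0 of the 8, with 8 and 3 at an unadjusted p under 0.05.

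Some macrophage and monocyte markers fell over the same arrays. Of 10 measured, 6 fell and 0 rose (median -1.44), and their summed log2 level was 13.51 to 13.69 untreated and 11.92 to 12.42 with IL2, with Adgre1 at -2.07 and Lyz2 at -1.77. The 4 that did not pass the test were C5ar1 at -0.91, Itgam at -0.72, Ccr2 at -0.01 and Fcgr1 at 0.23. Of 9 neutrophil markers 1 fell (median -0.73) and of 7 B cell markers 0 were called in limma, with 4 at an unadjusted p under 0.05 (median -0.29). The summed log2 level of the neutrophil markers was 13.17 to 13.54 untreated and 12.37 to 12.88 with IL2. That of the B cell markers was 13.79 to 13.97 untreated and 13.61 to 13.69 with IL2, so signal of these cell types remained after the depletion. No marker of these lists was listed at 0. The part of these cells in the falls was not tested. Among clusters with 1 symbol, 9 of 55 Ig-like and Fc receptor clusters fell and 0 rose.

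**Figure D3:**
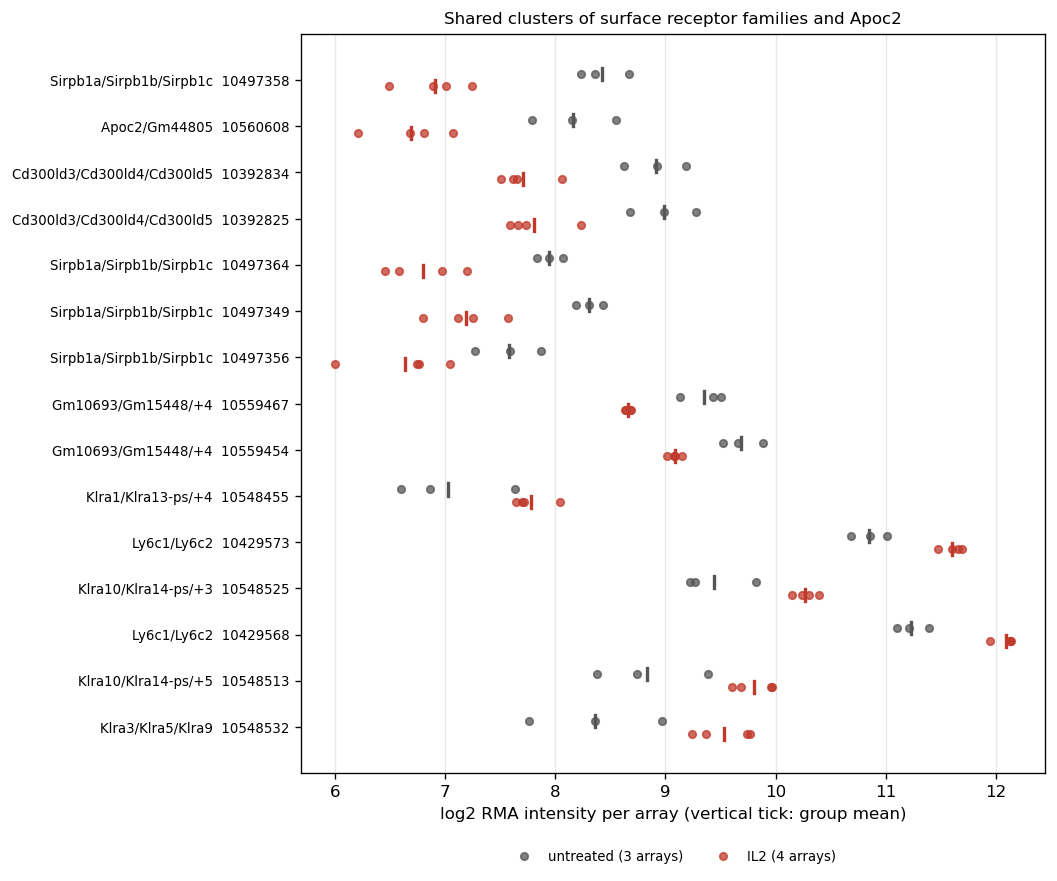
Log2 RMA intensity of each array (x axis) for shared clusters of Sirpb1, Cd300ld, PIR (Gm10693/Gm15448/+4), Klra and Ly6c genes and of Apoc2/Gm44805, sorted by log2 difference from the largest fall at the top; grey points are the 3 untreated and red points the 4 IL2 arrays, with ticks at the group means. IL2 arrays lie to the left of the untreated arrays in the rows of the Sirpb1, Cd300ld, PIR and Apoc2 clusters and to the right in the Ly6c rows.

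Apoc2/Gm44805 (10560608) joins overlapping genes of chromosome 7, of which Apoc2 encodes apolipoprotein C-II, the cofactor of lipoprotein lipase. It was at 8.55, 8.15 and 7.79 untreated and at 7.07, 6.68, 6.21 and 6.81 with IL2. The groups did not overlap, and it fell by 1.47 (SE 0.24, limma adjusted p = 0.0207), but not at the threshold without IL2 replicate 2, 3 or 4 or untreated replicate 2 or 3 (adjusted p up to 0.0941). Of the 10 macrophage and monocyte markers 6 fell in these arrays (median -1.44), and their part in this fall was not tested.

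Gm12657/H3f3a, in which H3f3a encodes the replacement histone H3.3, stood on 4 clusters of which 3 fell. Cluster 10412378 was at 10.97, 11.11 and 11.01 untreated and at 10.41, 10.49, 10.43 and 10.55 with IL2. No IL2 array reached the untreated range, and the difference was -0.56 (SE 0.08, limma adjusted p = 0.011, and 0.0519 without IL2 replicate 2). Clusters 10411776 and 10540507 (the latter named after its value was seen) differed by -0.58 and -0.54, with adjusted p-values of 0.0253 and 0.0172. The former was lost without IL2 replicate 2, 3 or 4 or untreated replicate 2 or 3 (up to 0.103) and the latter without IL2 replicate 2 or 3 or untreated replicate 3 or 4 (up to 0.0742). Cluster 10360679, named after its value was seen, differed by -0.41 (adjusted p = 0.0587). Shared clusters of replication-dependent histones, which are made during DNA synthesis, did not pass the test. The 12 H3c clusters lay between -0.36 and -0.25, and 14 clusters of H2a, H2b or H4 genes between -0.40 and -0.05.

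Ftl1, the ferritin light chain that stores iron with the heavy chain, shared 4 clusters with the microRNA genes Mir692-2 and Mir692-3. The mature microRNA, from RefSeq, is shown because both genes of the set give the same sequence and its seed (bases 2 to 8, in capitals). They lie at chr4:125504805-125504825 and chr13:74407121-74407141 (GRCm38.p6, + strand).
mmu-miR-692: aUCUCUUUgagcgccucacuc

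Cluster 10428336 was at 10.74, 10.86 and 10.86 untreated and at 10.03, 10.17, 10.24 and 10.25 with IL2. Its annotation lists RefSeq transcripts of Mir692-2 and Mir692-3 but not of Ftl1. All IL2 arrays were lower, by 0.65 on average (log2 difference -0.65, SE 0.08, limma adjusted p = 0.00937), and the call held without each array. Among macrophage and monocyte markers 6 of 10 fell in these arrays (median -1.44), and their part in this fall was not tested. The other 3 clusters of the set, named after their values were seen, differed by -0.59, -0.57 and -0.55 with SEs of 0.16 to 0.20, and did not pass the test. In these 3, IL2 replicates 1 and 2 were lower than IL2 replicates 3 and 4. Arrays of this kind measure labelled cDNA of longer transcripts, so the clusters give no level of the mature microRNA.

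Clusters that carry only 1 of the symbols gave another reading on the same arrays. Of the 1999 symbols 612 had such a cluster and 1387 (69.4%) did not. Of the 21 called sets 12 had none, among them Tgtp1/Tgtp2, Igtp/Irgm2, Ifi47/Olfr56, Sirpb1, Cd300ld and Ly6c. The other 9 sets had 15 such clusters, of which 7 were called in the direction of the shared cluster, 8 had the same sign without passing the test and 0 had the opposite sign. Gbp2b alone was at 6.04, 6.27 and 5.80 untreated and at 7.30, 7.22, 7.13 and 7.22 with IL2. It rose by 1.18 (SE 0.12, limma adjusted p = 0.00266), beside 3.60 on the cluster it shares with Gbp2.

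Within the chromosome 5 set Gbp4 alone rose by 3.17 (SE 0.27), Gbp9 by 1.98 (SE 0.19), Gbp8 by 1.96 (SE 0.28) and Gbp11, a transcribed pseudogene, by 1.36 (SE 0.12), beside 2.92 on the shared cluster. Klra3 alone, the Ly49C gene, rose by 1.56 (SE 0.22, limma adjusted p = 0.0117) and Klra8 alone, the Ly49H gene, differed by 0.37 (SE 0.22, adjusted p = 0.589), beside 0.83 on the cluster that carries both. Pirb alone, the inhibitory PIR, fell by 0.86 (SE 0.17, adjusted p = 0.0456), and Lilra6 alone differed by -0.41 (adjusted p = 0.498). H3f3a alone differed by -0.28 (adjusted p = 0.611), Ftl1 alone by -0.59 (adjusted p = 0.256), Khdc1a alone by 0.93 (adjusted p = 0.136) and B130055M24Rik alone by 0.23 (adjusted p = 0.498). Differences between a shared cluster and a cluster of 1 symbol were not tested, and levels of different clusters are not set against each other.

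**Figure D4:**
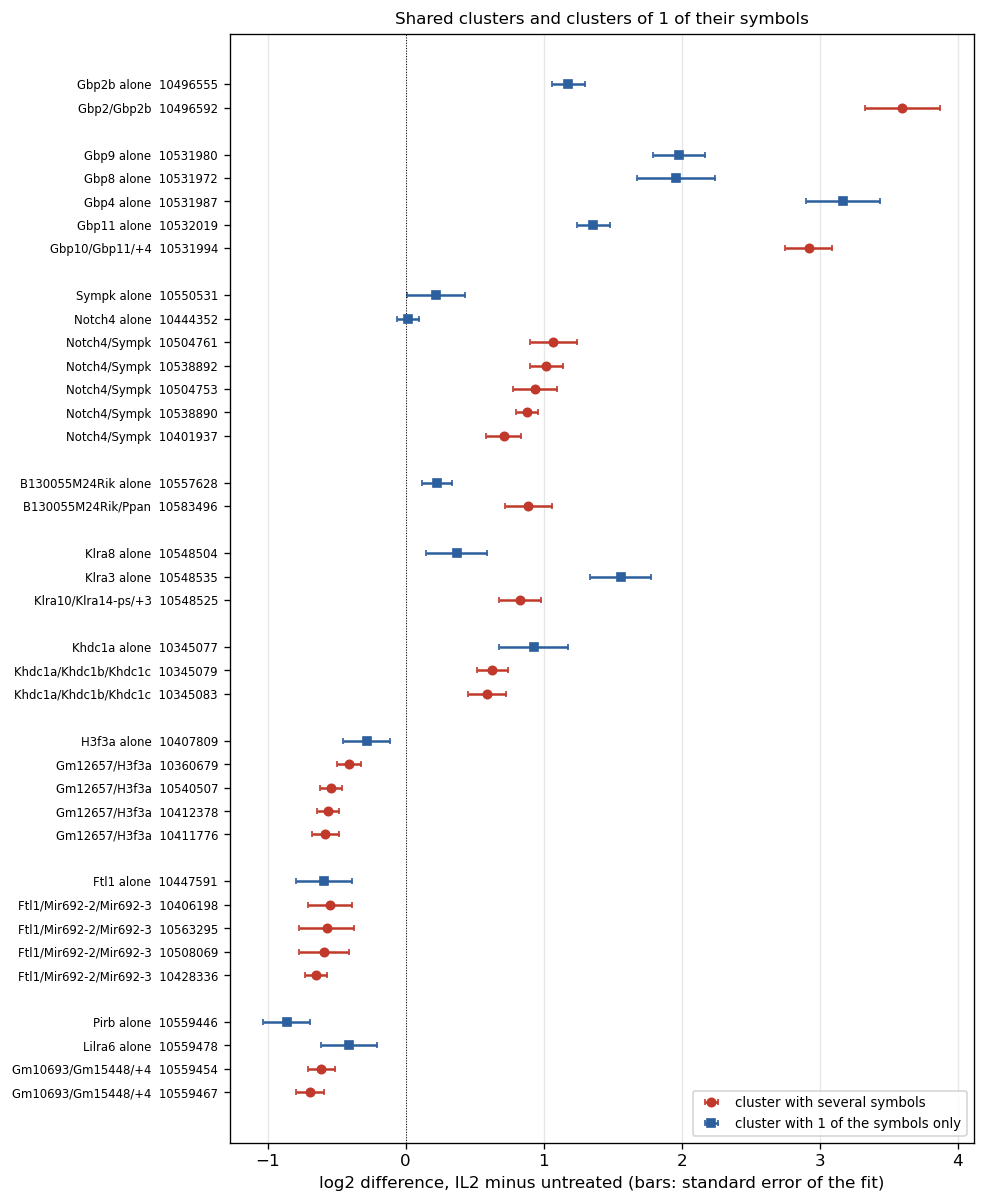
Log2 difference between IL2 and untreated arrays (x axis, with the standard error of the fit) for the clusters of 9 symbol sets (red circles) and for clusters that carry only 1 symbol of the set (blue squares). All points of a set lie on the same side of 0, with Gbp2/Gbp2b at 3.60 against 1.18 for Gbp2b alone and the 5 Notch4/Sympk clusters at 0.71 to 1.07 against 0.02 and 0.22.

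For 7 symbols the cluster of the symbol alone was called while a shared cluster was not, which touched 12 shared clusters. Tagap, a GTPase-activating protein of activated lymphocytes, rose by 0.78 alone (limma adjusted p = 0.00783) and differed by 0.63 on the cluster shared with Tagap1 (adjusted p = 0.0874). Oas1a rose by 1.03 alone, beside 0.66 with Oas1g, and Gm1966 by 1.26, beside 0.78 and 0.90 on the clusters with Gvin1. Klra5 and Klra6, of the Ly49 family, rose by 1.34 and 1.08 alone. H2bc4 alone fell by 0.82 (SE 0.12, adjusted p = 0.0157), while the 6 clusters it shares with other H2b genes differed by -0.40 to -0.33 with SEs of 0.24 to 0.39. On the shared cluster 10408210 the H2b values were 10.80, 12.23 and 11.94 untreated and 10.86, 10.90, 11.76 and 11.53 with IL2, so that untreated replicate 2 and IL2 replicates 1 and 2 were low in their groups. These symbols were named after their values were seen.

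Antigen presentation genes on shared clusters did not pass the test. Of 8 MHC clusters 0 were called in limma, with 2 at an unadjusted p under 0.05 (median 0.14). H2-T10/H2-T22/H2-T9 (10450694), non-classical class I genes of which T10 and T22 are ligands of gamma delta T cells, was at 9.41, 8.66 and 8.21 untreated and at 9.74, 9.69, 9.57 and 9.90 with IL2. The groups did not overlap, but the untreated arrays spread widely, and the difference was 0.97 (SE 0.26, limma adjusted p = 0.13). Without untreated replicate 2 it was 1.29 (adjusted p = 0.0151), with array quality weights 1.00 (adjusted p = 0.0497), and over arrays with and without the time in the title 1.30 and 0.30. It passed the threshold in no other setting. With 1 array left out in turn the difference was 0.69 to 1.29, at adjusted p-values of up to 0.36. The clusters of H2-D1/H2-K1/LOC547349, classical class I genes, differed by 0.06 and 0.19, and H2-DMb1/H2-DMb2, chaperones of peptide loading on class II, by -0.13 (adjusted p = 0.818). These last 3 clusters were named after their values were seen.

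Cytokine families on shared clusters were likewise not called. Of 23 clusters 0 passed limma and 0 had an unadjusted p under 0.05 (median -0.23, highest 0.08). The 12 clusters of Ifnz, a type I interferon, lay between -0.33 and -0.21, and 3 of interferon alpha genes between -0.30 and -0.17. Il4i1/Il4i1b (10552743), an amino acid oxidase named for its induction by interleukin 4, had the largest difference of the family at -0.38 (SE 0.19, adjusted p = 0.476).

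Genes of general cell function made up much of the rest. Of 234 clusters of ribosomal proteins and translation factors 0 were called in limma (7 at an unadjusted p under 0.05), with a median of -0.05 and a range from -0.43 to 0.55. The largest difference was that of Rps13/Snord14a (10567171), a ribosomal protein gene whose intron holds a small nucleolar RNA. It was at 7.29, 6.62 and 6.81 untreated and at 7.19, 7.66, 7.43 and 7.55 with IL2, which overlap (0.55, SE 0.18, adjusted p = 0.223). The annotation of this cluster lists a RefSeq transcript of Snord14a but not of Rps13. All 19 clusters with Gapdh, the glycolytic enzyme with many processed pseudogenes, lay between 0.14 and 0.18 (lowest adjusted p = 0.471), and the 32 with Hmgb1, a chromatin protein, between -0.35 and -0.05. The set on most clusters, Camkv/Cep170/Rpl21, had 22 clusters between -0.22 and -0.08.

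Receptors of smell and pheromones, whose genes are expressed in sensory neurons, had 156 clusters with 0 called in limma (2 at an unadjusted p under 0.05) and a median of -0.15. Germ line and placenta families, among them Ssty1 and Sly of the Y chromosome, had 153 with 0 called, 0 at an unadjusted p under 0.05 and a median of -0.12. Exactly equal values on 2 or more arrays, which lower the measured spread, were found in 569 shared clusters (40.8%) and in 0 of the 34 called ones.

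A few shared clusters outside these families came near the threshold. 4930567H12Rik/Cdkn1a (10443463), in which Cdkn1a encodes the cyclin-dependent kinase inhibitor p21, was at 8.48, 8.99 and 9.30 untreated and at 9.54, 9.86, 10.39 and 10.31 with IL2. The groups did not overlap, and the difference was 1.10 (SE 0.26, limma adjusted p = 0.088). Psme2/Psme2b (10385511), a subunit of the PA28 proteasome activator, differed by 0.71 (SE 0.15, adjusted p = 0.0592). The cluster of Ugt1a1, Ugt1a10, Ugt1a2, Ugt1a5 and 4 more (10348354), glucuronosyltransferases made from 1 locus with alternative first exons, differed by -0.72 (SE 0.15, adjusted p = 0.0516). These 3 were named after their values were seen.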

How the data were processed

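Gene expression was measured on 7 arrays. The authors deposited linear intensity values, 1 for each transcript cluster on each array. Per the submitters' processing notes they used RMA in Affymetrix Power Tools; versions and settings are not given in the sources used here. RMA does not divide a shared cluster's signal between its genes. Array medians were 121.3 to 131 (intensity), and the number of arrays limits the precision.

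Symbols came from the platform annotation. The 6 clusters that repeat 1 symbol were not counted, and 1987 of 1999 symbols were found in RefSeq (GRCm38.p6). Log2 values of all 24922 clusters, with no offset or filter, were fitted in limma 3.58.1 (R 4.3.3, lmFit and eBayes, treatment only), with Benjamini-Hochberg adjustment over all and a threshold of 0.05. SE is that of the moderated fit. The fit was also run on simulated data with independent noise on each array. These held no shift between array sets, so such shifts were not covered. Families are symbol patterns, the first match deciding. Named clusters are the 12 largest rises and 8 largest falls among called clusters with separate groups, and in families of 3 or more the 2 called with the largest difference; where none was called, the 1 largest in the NK lectin receptor, MHC, interferon-inducible, cytokine, histone and ribosomal families. Others described one by one are marked in the text, and clusters given as a range are not. Cell type markers were read on clusters of 1 symbol, as the log2 of summed linear values (dendritic cells, 1 of 7 lower; erythroid, 0 of 3 called in limma or at an unadjusted p under 0.05). Members, families and lists were chosen with earlier results of these data known. Alternatives covered normalization, offset, signal filter, weights, blocks, title style, stricter membership and each array left out. 0 columns of values of other samples were present.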

Additional observations from a re-analysis of the deposited data

Results flagged for a closer look

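In 37 groups of 4 IL2 arrays examined, 2 held an array far from the other 3, and chance gives about 1 in 20. For cluster 10429568 of Ly6c1 and Ly6c2, IL2 replicate 2 was at a log2 intensity of 11.95, while the other IL2 arrays were at 12.13, 12.13 and 12.14. For cluster 10403821 of Trgv2, Trgv4 and Trgv6 it was again IL2 replicate 2, at 10.30 beside 10.56, 10.60 and 10.61. Both values lay above every untreated array of their cluster.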

How the results depend on the processing

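All 34 called shared clusters kept their sign in each of the 11 other settings in which they were tested (28 were tested at or above the median signal) and without each of the 7 arrays. Over the arrays with the time in the title, 6 shared clusters were higher (5 of them interferon-inducible) and 1 was lower, with 0 Ig-like and Fc receptor clusters lower. Over those without it limma called 0 in all 4 counts, with 153 shared clusters (11 interferon-inducible, 3 Ig-like and Fc receptors) at an unadjusted p under 0.05. With title style as a block 37 were higher and 17 lower. The counts were 32 and 13 with array quality weights, and 31 and 17 with quantile normalization again. Among clusters of exactly 2 symbols 4 were lower, and among those with no predicted or clone name 6. Leaving out 1 array gave 12 to 27 higher, 2 to 13 lower, 6 to 10 interferon-inducible higher and 1 to 7 Ig-like and Fc receptors lower. Replicate numbers shared by the groups did not pair the arrays (correlations of deviations 0.47, -0.27 and 0.24 for numbers 2, 3 and 4). With a replicate block 24 were higher and 9 lower, with 23 of the 34 calls kept and 10 others made. The cause of these changes was not tested. Settings with fewer arrays also have fewer degrees of freedom. Values on shared clusters cannot be assigned to 1 gene. The untreated values of the Notch4/Sympk clusters, 5.33 to 6.25, lay below the array medians of 6.92 to 7.03, and no detection call was used.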
